A study of Mus musculus with 12 samples.

Results

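Cultured stromal cells of epididymal fat, the visceral depot beside the testis, were sorted by a Zfp423-GFP transgene, and GFP+ cells are compared here with GFP- cells across all 12393 genes measured. The comparison rests on 6 of the 12 arrays of the series, taken by their sample labels: 3 of epididymal GFP+ and 3 of epididymal GFP- cells. The other 6 arrays hold GFP+ and GFP- cells of inguinal fat, the depot under the skin, and serve the shared estimate of spread and the comparison of depots. All 4 groups came from male Zfp423-GFP transgenic mice of 6 to 8 weeks on an FVB and C57BL/6 background, so the GFP- cells carry the transgene too. Stromal vascular cells, which remain once the fat cells are removed, were put in culture, sorted, regrown in DMEM/F12 medium with fetal bovine serum and collected while they still divided. The labels call the cells of both gates fibroblasts and do not give the sequence that drives GFP. They do not say that replicates came from separate mice or cultures, so a p-value here measures only how far these arrays spread, which may be technical, and the number of arrays limits the precision.

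Epididymal fat is wrapped in mesothelium, a sheet of flat cells that lines the body cavity, carries keratins, mesothelin and uroplakin 3B, and shares the transcription factor Wt1 with the visceral fibroblasts beneath it. Fibroblastic preadipocytes carry PDGF receptors and lay down collagen-rich matrix, and those committed to fat express Zfp423, EBF factors and the nuclear receptor Pparg. In culture, mesothelial cells can lose their sheet-like shape and take on fibroblast genes, so the genes of both programmes are set side by side below.

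Signal is the linear probe set value of an Affymetrix array, and differences are on the log2(signal + 16) scale, GFP+ minus GFP-, with the standard error (SE). That scale understates changes of weak genes. The median signal of an array lay between 379.8 and 405.1, and arrays of a group correlated across genes at r of at least 0.993, a description only. Along the first principal component (59.3% of the variance) epididymal GFP+ lay between the inguinal arrays and epididymal GFP-. The 62 receptor genes of smell and trace amine sensing, which are silent in such cells, had a median of 20.9 in the GFP+ and 20.8 in the GFP- gate, which marks the array floor. A gene was called where limma gave a Benjamini-Hochberg adjusted p under 0.05 over all genes, and weakly detected where its mean over all arrays was among the lowest 30%, under a signal of 77.7. In cultures measured in bulk, fewer cells of a type and less RNA per cell cannot be told apart.

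The sorted gene followed its label. Zfp423 read 239, 278 and 208 in the GFP+ arrays and 29.1, 25.8 and 33.4 in the GFP- arrays, which lies close to the array floor. Ebf2, an EBF factor of fat progenitors, read 1151, 1203 and 1168 against 15.2, 15.1 and 25.1. The groups were far apart for both genes, and GFP- cells retained 1.57% of the GFP+ mean for Ebf2. Upk3b, the uroplakin of the mesothelial surface, read 592, 582 and 625 in GFP+ and 9045, 9812 and 9518 in GFP- arrays. Krt7, a keratin of simple epithelia and mesothelium, read 52.9, 52.7 and 62.6 against 1534, 2170 and 1787. Both were thus high in every GFP- array, and GFP+ cells retained 6.34% of the GFP- mean for Upk3b and 3.06% for Krt7.

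**Figure D1:**
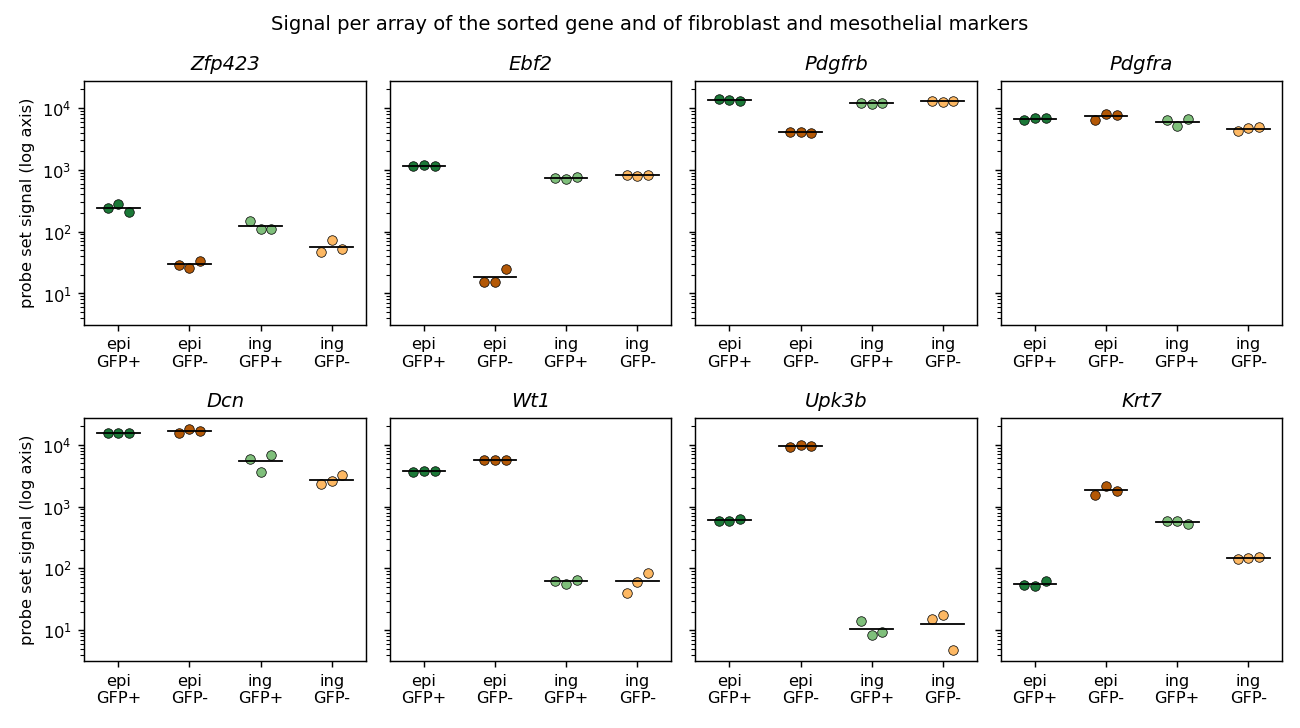
Probe set signal (log axis) of 8 marker genes on each of the 12 arrays, by group (epi, epididymal; ing, inguinal); points are arrays and bars are means of 3. Of the 2 epididymal groups, Zfp423, Ebf2 and Pdgfrb are high in GFP+ and Upk3b and Krt7 in GFP-. The Dcn and Pdgfra arrays of these 2 groups overlap, and Wt1 is high in both. Ebf2 and Pdgfrb are high in both inguinal groups as well.

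GFP- cells also had a high signal of 3 general fibroblast genes, Dcn, Pdgfra and Mmp2, which were not called, while other fibroblast genes differed between gates (below). Dcn, the collagen-binding proteoglycan decorin, read 15270, 15734 and 15383 in GFP+ and 15697, 18060 and 16858 in GFP- arrays. Its difference was -0.12 ± 0.17 (95% interval -0.48 to 0.23; adjusted p = 0.622, limma), and a fit on the epididymal arrays alone called it lower (adjusted p = 0.0397). Pdgfra, the PDGF receptor of fat progenitors, read 6418, 6871 and 6906 against 6359, 8086 and 7701, with overlapping groups (-0.13, 95% interval -0.32 to 0.06, adjusted p = 0.298). Without epididymal GFP- replicate 1 it was called lower (-0.23, adjusted p = 0.044). The gelatinase Mmp2 differed by -0.02 (95% interval -0.13 to 0.09). The epithelial cadherin Cdh1 read 5.82 to 6.06 in GFP+ and 9.88 to 28.1 in GFP- arrays, and the adhesion molecule Epcam 20.1 to 47.0 and 12.3 to 32.0, both at the array floor.

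Across all genes 5187 of 12393 were called (41.9%), 2668 higher (21.5%) and 2519 lower (20.3%) in GFP+ cells. Most of these differences were small, since 3510 of the called genes differed by less than 1.5-fold and the median size was 0.37 on the log2 scale. At least 2-fold higher were 448 genes (3.61%) and at least 2-fold lower 394 (3.18%), and at least 8-fold 51 and 37. Groups did not overlap for 6191 genes (50.0%). Among genes with several probe sets, the next brightest one had the same sign for 85.2% of 2502 called genes, and for 97.3% of the 223 that changed at least 2-fold and had a second probe set that was not weakly detected. Against this background the median difference over all genes was 0.01. The counts of each gene list below are to be read beside these shares of 41.9% called, 21.5% higher and 20.3% lower.

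**Figure D2:**
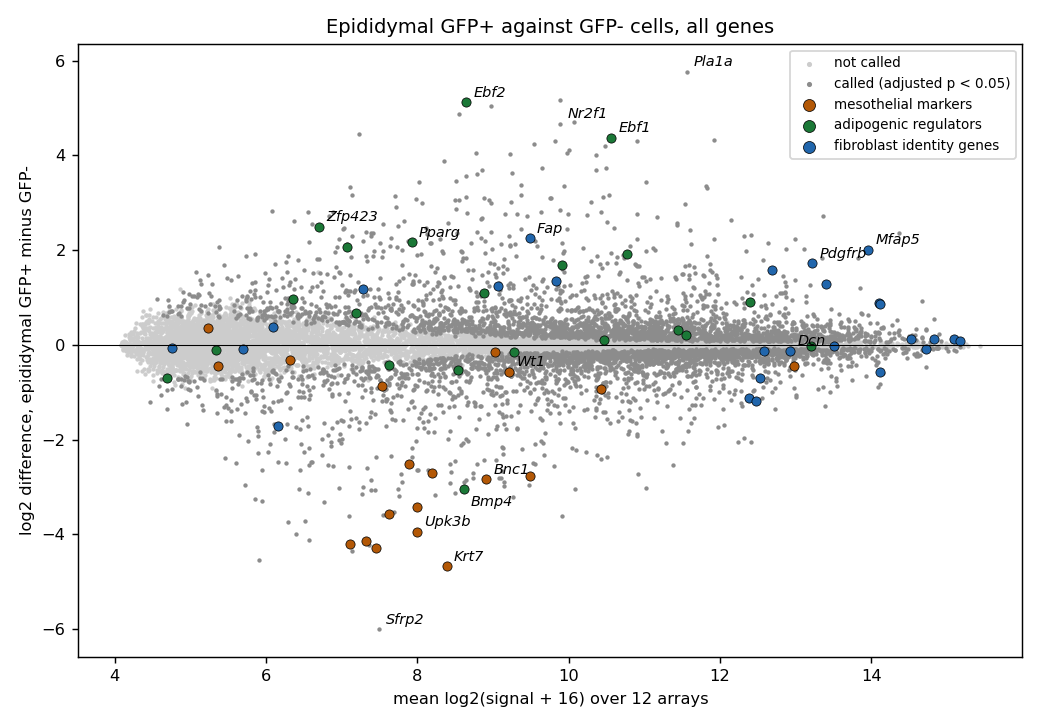
Log2 difference between epididymal GFP+ and GFP- cells (y axis) against mean log2(signal + 16) over the 12 arrays (x axis) for all 12393 genes, with called genes in dark grey and 3 gene lists in colour. Mesothelial markers lie at or below 0 apart from 1 uncalled gene near the floor, adipogenic regulators mostly above it, and fibroblast genes on both sides, with Dcn close to 0.

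The genes furthest apart kept a small share of their signal in the lower group. For the 15 leading genes of GFP+ cells the GFP- mean was 1.57% to 5.33% of the GFP+ mean, and for the 15 leading genes of GFP- cells the GFP+ mean was 1.10% to 7.96% of the GFP- mean. The lower group was weakly detected in 4 and 8 of them, so their sizes are limited by the array floor. Pla1a, a phospholipase that acts on phosphatidylserine, led the GFP+ side with 8927, 8879 and 8719 against 121, 173 and 150 (5.76 ± 0.08, adjusted p = 1.63e-17). Cxcl14, a chemokine of stromal cells, read 7567, 7401 and 7639 against 302, 407 and 374 (4.34 ± 0.08). Itga9, an integrin subunit, read 3489, 3452 and 3441 against 181, 175 and 198 (4.12 ± 0.05), while its dimmer probe sets gave 2.52 and 2.08. No array of one group came near the other in any of these 3 genes. On the GFP- side Sfrp2, a secreted Wnt modulator, read 15.8, 47.1 and 37.7 in GFP+ and 2442, 3600 and 3135 in GFP- arrays (-6.00 ± 0.34, adjusted p = 3.68e-10). Aqp5, a water channel of epithelia, read 51.5, 56.3 and 38.2 against 1163, 1009 and 1131 (-4.12 ± 0.20). Ahr, the receptor for aryl hydrocarbons, read 400, 486 and 447 against 5427, 5865 and 5458 (-3.61 ± 0.10). A pair of close relatives split between the gates: Gpm6b and Gpm6a encode membrane glycoproteins of one family, and Gpm6b was higher in GFP+ (5.04 ± 0.17, mean 3208 against 82.6) while Gpm6a was lower (-4.29 ± 0.21, mean 129 against 2828).

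The other leading genes on the GFP+ side were Ccl9, a chemokine (5.17), Lama1, a laminin chain (4.88), Ms4a4d, a membrane protein (4.71), Nr2f1, an orphan nuclear receptor (4.67), Mrap, the melanocortin receptor accessory protein (4.46), Ebf1 (4.38), the fatty acid carrier Fabp4 (4.30), the secreted protein Srpx2 (4.30), the receptor Pilra (4.23) and Mustn1 (4.19). Those on the GFP- side were Krt7 (-4.67), Lratd1 (-4.54), the actinin partner Pdlim3 (-4.34), Etl4 (-4.23), Prr15 (-4.20), the Wnt agonist Rspo1 (-4.14), Rhpn2 (-3.98), Upk3b (-3.94), P-selectin, Selp (-3.73), Tent5c (-3.71) and the glypican Gpc3 (-3.61).

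Promoter windows are shown for 1 leading gene of each side and for a keratin in which 2 searched motifs occur, since factors of the EBF and GATA families differed between the gates. Each window is the 250 bases before the gene's start, from RefSeq on GRCm38.p6, written 5′ to 3′ on the gene's strand. Capitals mark a motif match, and Krt8 was chosen after its match was seen. Itga9 is at chr9:118711442-118711691 on the plus strand, Upk3b at chr5:136038246-136038495 on the plus strand and Krt8 at chr15:102004343-102004592 on the minus strand.
Itga9: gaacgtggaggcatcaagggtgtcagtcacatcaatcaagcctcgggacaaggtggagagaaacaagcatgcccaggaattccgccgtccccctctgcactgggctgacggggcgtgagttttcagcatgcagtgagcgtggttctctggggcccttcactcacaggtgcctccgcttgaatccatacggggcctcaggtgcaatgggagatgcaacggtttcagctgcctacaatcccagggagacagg
Upk3b: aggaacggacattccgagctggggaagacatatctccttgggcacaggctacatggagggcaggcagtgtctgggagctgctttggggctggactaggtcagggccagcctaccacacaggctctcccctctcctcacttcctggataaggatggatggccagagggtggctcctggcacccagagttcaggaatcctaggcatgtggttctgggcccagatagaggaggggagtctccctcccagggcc
Krt8: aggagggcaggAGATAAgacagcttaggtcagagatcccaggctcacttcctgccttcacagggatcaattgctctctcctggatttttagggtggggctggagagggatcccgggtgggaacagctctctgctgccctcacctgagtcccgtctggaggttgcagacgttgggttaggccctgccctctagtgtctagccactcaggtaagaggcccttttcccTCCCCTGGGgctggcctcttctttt

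In the Krt8 window the capitals mark a match to AGATAA, the motif of GATA factors, and TCCCCTGGG, which fits the EBF motif TCCCNNGGG. Motifs were searched on both strands. Of the 15 leading genes on each side 10 of the GFP+ and 14 of the GFP- genes had a window. The EBF motif was present for 0 of 10 and 1 of 14, against 6.45% of 27025 genes with a window. AGATAA was present for 1 of 10 and 0 of 14, against 11.4% of all genes. GCGTGGGAG, a WT1 motif, was present for 0 of both, against 0.463%. These counts describe letters in a short window and say nothing about binding.

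Mesothelial markers were lower in GFP+ cells almost as a block. Of 24 listed, 19 were measured, 15 were called lower, 0 higher and 4 were not called, with a median difference of -2.70 against 0.01 for all genes, and 11 were at least 2-fold lower. Upk1b, Lrrn4, Muc16, C3 and Ildr2 were not analysed here. The summed signal of the list was 19491 to 20204 in GFP+ and 72691 to 78288 in GFP- arrays, so the arrays of the gates did not overlap. Msln, the surface protein mesothelin, read 175, 167 and 200 against 2411, 2252 and 2330 (-3.58 ± 0.14, adjusted p = 4.56e-12). Krt8, the keratin partner of Krt18, read 353, 307 and 338 against 3656, 3847 and 3690 (-3.43 ± 0.17), and Krt18 itself 611, 526 and 518 against 3745, 3473 and 3753 (-2.70 ± 0.25). Bnc1, the zinc-finger factor basonuclin, read 1403, 1418 and 1546 against 10195, 10949 and 10362 (-2.84 ± 0.13), and so was still plainly above the floor in GFP+ cells. Slpi, a secreted protease inhibitor, read 1664, 1817 and 1764 against 10611, 13188 and 12281 (-2.77 ± 0.12).

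The other 4 called markers were lower by less than 2-fold. Wt1, the Wilms tumour factor, read 3678, 3800 and 3816 in GFP+ and 5590, 5586 and 5598 in GFP- arrays (-0.57 ± 0.14, adjusted p = 0.00361). Aldh1a2, the retinoic acid synthase of coelomic lining, read 7357, 7555 and 7484 against 10394, 10380 and 9820 (-0.45 ± 0.04). The matrix protein Efemp1 was also lower (-0.93 ± 0.07, mean 2564 against 4915), as was the tight junction claudin Cldn15 (-0.86, mean 160 against 301). Both gates thus kept a high Wt1 and Aldh1a2 signal. Only Wt1 set them apart from inguinal cells. On the log2 scale the mean over all arrays, inguinal ones included, was 12.97 for Aldh1a2 and 9.21 for Wt1. Inguinal arrays were therefore bright for Aldh1a2 on average, and its level does not mark the epididymal depot. Of the 4 markers not called, Krt19 had overlapping groups (184 to 203 in GFP+, 177 to 267 in GFP-), and Calb2, Dmkn and Pkhd1l1 were weakly detected. Over the 11 markers that were at least 2-fold lower, GFP+ cells retained 3.06% to 16.6% of the GFP- mean, with a median of 7.75%.

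Genes of epithelial junctions and cell polarity leaned the same way but fewer were measured above the floor. Of 26 measured genes 11 were lower, 0 higher and 15 not called (median -0.30), and 14 were weakly detected. The share called was 42.3%, close to the 41.9% of all genes, of which 20.3% were lower and 21.5% higher. Ezr, which links membrane to actin in microvilli, read 1802, 1918 and 1822 in GFP+ and 14625, 15978 and 14556 in GFP- arrays (-3.01 ± 0.06, adjusted p = 6.86e-16). Pard6b, a polarity adaptor, read 107, 134 and 174 against 1186, 1344 and 1123 (-3.02 ± 0.39). Cdh3, P-cadherin, read 698, 831 and 712 against 2765, 3335 and 3188 (-2.03 ± 0.09). The groups were separate in each. The junction protein F11r (-1.54 ± 0.04, mean 2849 against 8312), plakoglobin, Jup (-1.17, 660 against 1509), and Podxl, a sialomucin (-0.83, 221 against 410), were also lower. Prkci, an atypical kinase of the polarity complex, was about as bright in both gates (2922 and 3100, adjusted p = 0.131), and Grhl2, an epithelial master factor, had overlapping arrays around 149 and 151.

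Fibroblast identity genes split into a larger group that was higher in GFP+ cells and a smaller one that was lower. Of 26 measured, 14 were higher, 6 lower and 6 not called (median 0.12). Fap, a membrane protease of activated fibroblasts, read 1526, 1674 and 1521 against 296, 327 and 333 (2.25 ± 0.09, adjusted p = 1.07e-11). Mfap5, a microfibril protein, read 21881, 21574 and 22037 against 5412, 5245 and 5554 (2.01 ± 0.03). Pdgfrb, the receptor for PDGF-B, read 13718, 13382 and 12946 against 4024, 4108 and 3994 (1.72 ± 0.03, adjusted p = 6.47e-17). PDGF receptors therefore differed from each other: Pdgfrb was higher in GFP+ cells and Pdgfra overlapped. The matrix genes Fbln1 (1.35 ± 0.14), Lum (1.24 ± 0.27) and Dpt (1.18 ± 0.24) were also higher. Lower were Cd34, a sialomucin of progenitors (-1.70 ± 0.28, mean 42.2 against 174), Thy1, a surface glycoprotein (-0.71 ± 0.04, mean 3427 against 5611), and S100a4 (-0.57 ± 0.03, 12635 against 18777).

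Regulators of fat cell formation were mostly higher in GFP+ cells. Of 21 measured, 13 were higher, 3 lower and 5 not called, with a median of 0.67, and 8 were at least 2-fold higher. Ebf1, the relative of Ebf2, read 2762, 3099 and 2895 against 119, 130 and 126 (4.38 ± 0.05, adjusted p = 3.64e-18). Pparg, the nuclear receptor at the centre of adipogenesis, read 238, 222 and 183 against 29.7, 28.2 and 48.8 (2.17 ± 0.15), a low signal in dividing cells. Klf15, a zinc-finger activator of fat and glucose genes, read 134, 141 and 149 against 23.5, 20.1 and 20.9 (2.07 ± 0.13). In GFP- arrays Pparg and Klf15 lay near the floor and Ebf1 above it. Zfp521, the relative of Zfp423 that restrains adipogenesis, was also higher (1.70 ± 0.08, mean 1375 against 414), as were Egr2 (1.92 ± 0.09, 2023 against 525), Cebpa (1.09 ± 0.12, 674 against 311) and Cebpd (0.90 ± 0.04, 5957 against 3180). Cebpb, which acts early with Cebpd, was about equal (10834 and 11030, difference -0.03, 95% interval -0.11 to 0.06). Bmp4, a ligand that commits precursors to fat, went the other way, with 979, 924 and 956 in GFP+ and 7683, 8049 and 8292 in GFP- arrays (-3.05 ± 0.15, adjusted p = 5.48e-11).

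Lipid genes of mature fat cells were called about as often as all genes. Of 25 measured, 7 were higher, 3 lower and 15 not called (median -0.01), so that 10 of 25 were called beside 41.9% of all genes, and 11 were weakly detected. Fabp4 read 6169, 6471 and 6031 against 295, 318 and 288 (4.30 ± 0.09), and G0s2, an inhibitor of lipolysis, 471, 553 and 523 against 57.8, 50.2 and 45.5 (2.99 ± 0.13). Fabp5, a second fatty acid carrier, was already bright in GFP- cells and higher in GFP+ (1.19 ± 0.05, 22246 against 9709). Smaller differences were seen for Dgat2, which completes triglyceride synthesis (0.95 ± 0.08), the desaturase Scd1 (0.29 ± 0.03) and lipoprotein lipase, Lpl (0.41 ± 0.11, adjusted p = 0.00813). Lpl was not called without epididymal GFP- replicate 1 (adjusted p = 0.0551). Mgll, which clears monoglycerides, read 2356, 2145 and 2418 against 9927, 9456 and 9391 (-2.05 ± 0.09), and the lipid droplet coat Plin2 (-0.41 ± 0.04) and fatty acid synthase, Fasn (-0.16 ± 0.04), were also lower.

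Transcription factors of mesenchymal change and of lineage were found high on either side. Of 37 measured, 17 were higher, 11 lower and 9 not called (median 0.19). Twist2, a bHLH factor of dermal and other mesenchyme, read 1058, 1059 and 1057 in GFP+ and 98.9, 104 and 128 in GFP- arrays (3.10 ± 0.08, adjusted p = 2.19e-14). Its relative Twist1 was lower, with 1147, 1297 and 1271 against 1987, 2130 and 2161 (-0.75 ± 0.05). The paralogues were thus shifted in opposite directions. Of the factors that repress epithelial cadherin, Snai2 (2.09 ± 0.05, mean 1706 against 390), Zeb2 (1.49 ± 0.05, 4487 against 1581) and Snai1 (1.24 ± 0.08, 541 against 220) were higher, and Zeb1 was about equal (2292 and 2383, adjusted p = 0.281). Prrx1, a homeobox factor of limb and fibroblast mesenchyme, read 7651, 7308 and 7201 against 2330, 2673 and 2360 (1.59 ± 0.04). Irx3 (1.83 ± 0.09), Tcf4 (1.47 ± 0.05) and Tbx18 (1.24 ± 0.10) were higher as well.

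Within this list Isl1, Gata6 and Nfib were among the factors high in GFP- cells. Isl1, a LIM homeobox factor, read 39.7, 20.4 and 18.3 against 211, 175 and 270 (-2.49 ± 0.27, adjusted p = 1.05e-06). Gata6, a zinc-finger factor of visceral mesoderm, read 2069, 2206 and 2169 against 7141, 7828 and 7967 (-1.82 ± 0.05, adjusted p = 9.03e-14). Nfib, a nuclear factor I protein, read 2477, 2685 and 2482 against 6310, 7172 and 7094 (-1.42 ± 0.06). Gata6 and Nfib were bright in both gates and separate between them, while Gata4 stayed near the floor in both (32.2 and 27.4). Gata3 (-1.62 ± 0.22, 48.7 against 180), Meis2 (-1.33 ± 0.05, 1327 against 3353) and Osr1, a factor of intermediate mesoderm (-1.05 ± 0.10, 719 against 1523), were lower. Tcf21, a visceral stroma factor, overlapped between gates, with 1414, 1495 and 1364 against 1118, 1475 and 1315 (0.14 ± 0.18, 95% interval -0.24 to 0.51), and averaged 32.3 and 25.0 in the inguinal gates.

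**Figure D3:**
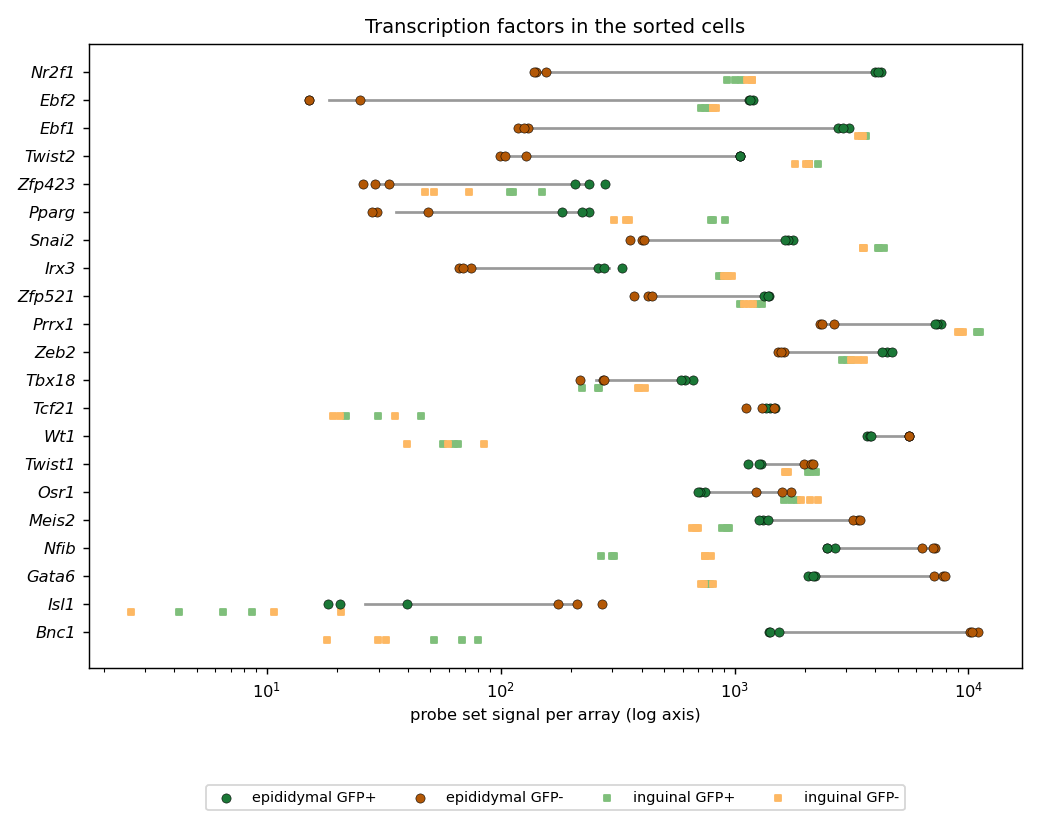
Probe set signal per array (log axis) of transcription factors in the 4 groups; round points are epididymal arrays joined by a line between group means, squares are inguinal arrays. Between the epididymal gates Ebf1, Ebf2, Nr2f1 and Twist2 lie far to the right in GFP+, Gata6, Nfib, Isl1 and Bnc1 in GFP-, and Tcf21 overlaps. For Ebf1, Ebf2 and Nr2f1 both inguinal gates also lie well to the right of epididymal GFP-.

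Collagens differed in both directions. Of 17 collagens measured outside the fibroblast list, 4 were higher, 8 lower and 5 not called (median -0.20). Col14a1, a collagen that binds fibrils, read 1507, 1630 and 1505 against 72.0, 92.5 and 77.1 (4.02 ± 0.11, adjusted p = 3.43e-14). Its second probe set gave 2.34. Col15a1, a basement membrane collagen, read 1000, 1084 and 1025 against 93.0, 115 and 99.1 (3.16 ± 0.09). The fibrillar chains Col5a3 (1.88 ± 0.10) and Col5a1 (0.88 ± 0.03) were also higher, and Col11a1 was lower (-1.13 ± 0.12). Col4a6 read 429, 315 and 449 against 1558, 1347 and 1393 (-1.82 ± 0.13), and its neighbour in the type IV network, Col4a5, was lower too (-0.79 ± 0.03, 6879 against 11867). The main type IV chain Col4a1 differed by -0.23 ± 0.03. Type VI collagen is built of 3 chains, of which Col6a3 was higher (1.28 ± 0.04, 12154 against 4996) while Col6a1 (-1.13 ± 0.10, 2620 against 5745) and Col6a2 (-1.17 ± 0.10, 2656 against 6021) were lower. The bright fibril collagens Col1a1 (0.13), Col1a2 (0.12) and Col3a1 (0.08) were called with small differences near the top of the signal range, and the next brightest probe set of Col1a2 gave -0.12.

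Laminin and integrin genes of the basement membrane differed in both directions. Of 28 measured genes of this list 9 were higher, 11 lower and 8 not called (median 0.02). Lama1 read 1982, 1773 and 2085 against 45.7, 49.1 and 57.2 (4.88 ± 0.11, adjusted p = 5.68e-15), and the muscle-type chain Lama2 1462, 1261 and 1331 against 320, 270 and 288 (2.15 ± 0.07). Lamb2 (1.14 ± 0.06), the fibronectin receptor chain Itga5 (1.03 ± 0.08) and Itgb5 (1.10 ± 0.03) were higher with them. On the GFP- side stood the laminin-binding integrins. Itga3 read 451, 490 and 459 against 3030, 3288 and 3076 (-2.70 ± 0.07), although a dim second probe set gave 0.47 (adjusted p = 0.125). Itga6 read 231, 260 and 259 against 1645, 1369 and 1474 (-2.50 ± 0.15), and Itga7 205, 223 and 208 against 1170, 1292 and 1156 (-2.42 ± 0.08). The linker nidogen-2, Nid2 (-2.07 ± 0.08, 2021 against 8563), the proteoglycan agrin, Agrn (-1.59 ± 0.06), and the laminin chains Lama5 (-0.70 ± 0.09) and Lamc1 (-0.61 ± 0.04) were lower in GFP+ cells, while Nid1 was slightly higher (0.29 ± 0.02). A second probe set of Lama5 gave -1.87.

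Matricellular proteins and proteoglycans were on balance higher in GFP+ cells. Of 35 measured, 21 were higher, 7 lower and 7 not called (median 0.24). Prelp, a leucine-rich proteoglycan, read 2966, 2982 and 2807 against 204, 218 and 193 (3.73 ± 0.06, adjusted p = 7.65e-17). A second probe set of Prelp gave 1.81. Thbs2, an antiangiogenic thrombospondin, read 15779, 14116 and 15600 against 2190, 2438 and 2204 (2.73 ± 0.05). Postn, the periostin of fibrous matrix, read 30354, 29195 and 29359 against 5468, 6134 and 5772 (2.35 ± 0.03). In each of them every GFP+ array was above every GFP- array. Ccn3 (3.10 ± 0.22), Ccn5 (2.58 ± 0.05), Fmod (1.59 ± 0.08) and Vcan (1.54 ± 0.08) were higher too. Eln, elastin, read 122, 121 and 96.3 against 778, 1119 and 893 (-2.86 ± 0.17), with a weakly detected second probe set at 0.01, and Fbln5, an elastin-binding fibulin, was lower by a smaller amount (-0.99 ± 0.03, 8309 against 16481). Mgp, an inhibitor of calcification, was lower (-1.28 ± 0.07, 11114 against 27086), and Gpc3 fell to 92.3 from 1306. Sparc (-0.03, 95% interval -0.08 to 0.02) and Ogn (-0.04, 95% interval -0.12 to 0.05) were level.

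Proteases that remodel matrix were more often higher than lower. Of 28 proteases and inhibitors measured, 16 were higher, 6 lower and 6 not called (median 0.37). Htra3, a serine protease, read 744, 700 and 660 against 67.2, 71.0 and 60.2 (3.13 ± 0.08, adjusted p = 2.37e-14). Its second probe set, not weakly detected, gave 0.06, and a weakly detected further one 1.10. Ctsk, cathepsin K, read 3904, 3882 and 4038 against 709, 795 and 665 (2.42 ± 0.05). Mmp11, stromelysin-3, read 4669, 4719 and 4911 against 1010, 1162 and 1071 (2.13 ± 0.08). Plau, the urokinase activator, was higher by 1.87 ± 0.07 and the C1 inhibitor Serping1 by 1.04 ± 0.07. The inhibitors Timp3 (-0.83 ± 0.02) and Timp2 (-0.36 ± 0.03) and the membrane protease Mmp14 (-0.31 ± 0.03) were lower, all from bright signals. Dimmer probe sets of Timp3 gave larger differences, of -1.12, -1.23 and -1.94.

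BMP and TGF-beta pathway genes differed in both directions. Of 40 measured, 11 were higher, 12 lower and 17 not called (median -0.02). Inhbb, the activin B subunit, read 3192, 3020 and 2923 against 282, 242 and 272 (3.45 ± 0.05, adjusted p = 7.65e-17). A dimmer second probe set of Inhbb, not weakly detected, gave only 0.31. Eng, the co-receptor endoglin, read 1470, 1400 and 1522 against 201, 177 and 210 (2.81 ± 0.07). The type I receptors Acvrl1 (1.66 ± 0.12) and Tgfbr1 (1.31 ± 0.04) and the type II receptor Acvr2a (1.44 ± 0.07) were higher. Id1, a helix-loop-helix inhibitor that BMP signals induce, read 2873, 2868 and 2881 against 9874, 10224 and 10245 (-1.81 ± 0.12), and Id2 1773, 1839 and 1820 against 4706, 4865 and 4976 (-1.41 ± 0.06). Id3 (-0.28 ± 0.04) and the decoy receptor Bambi (-0.87 ± 0.07) were lower with Bmp4, whose values are given above. Bmpr2 was level (0.07, 95% interval -0.12 to 0.25).

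Wnt pathway genes were called about as often as all genes. Of 38 measured, 10 were higher, 6 lower and 22 not called (median 0.08), a share called of 42.1% beside 41.9% for all genes. Besides Sfrp2, which read in GFP+ cells about as low as the array floor, the agonist Rspo1 read 242, 216 and 178 against 3706, 3984 and 4247 (-4.14 ± 0.20, counted with the mesothelial markers). Lgr6, a receptor for R-spondins, was higher (2.37 ± 0.16, 228 against 31.1), as were the feedback inhibitor Nkd2 (1.99 ± 0.16, 241 against 48.7) and the ligand Wnt5a (1.37 ± 0.06, 3200 against 1231). Wnt2 (-1.44 ± 0.19, 179 against 511) and Wnt4 (-0.88 ± 0.13, 1916 against 3546) were lower. The receptor Fzd5 was higher (1.97 ± 0.53), but its GFP- arrays read 233, 18.5 and 83.2 and scattered widely. Sfrp1 missed the test (0.48, 95% interval 0.01 to 0.94, adjusted p = 0.098).

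Retinoid genes were more often higher than lower in GFP+ cells. Of 16 measured, 9 were higher, 2 lower and 5 not called (median 0.28). Rarb, a receptor and target of retinoic acid, read 927, 1011 and 977 against 62.8, 79.0 and 78.9 (3.47 ± 0.10, adjusted p = 9.95e-14). Dhrs3, a retinaldehyde reductase, read 9630, 9155 and 8902 against 2407, 2522 and 2090 (1.98 ± 0.13), and the carrier Rbp4 528, 543 and 530 against 108, 113 and 116 (2.10 ± 0.12). The synthases went apart: Aldh1a1 read 3651, 3315 and 3232 against 19097, 20832 and 19095 (-2.53 ± 0.05), whereas Aldh1a3 was higher (1.22 ± 0.17, 1799 against 778). Cyp26a1, which degrades retinoic acid, was lower (-2.54 ± 0.18, 87.8 against 581).

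Among growth factors the paracrine ligands Fgf7 and Hgf were high in GFP+ cells. Of 39 ligands and receptors measured, 8 were higher, 13 lower and 18 not called (median -0.11, 53.8% called beside 41.9% of all genes). Fgf7, a keratinocyte growth factor, read 1823, 1702 and 1570 against 98.5, 85.6 and 87.6 (4.01 ± 0.06, adjusted p = 4.54e-17). Hgf, hepatocyte growth factor, read 282, 316 and 264 against 23.8, 23.5 and 14.3 (3.06 ± 0.12). The receptor genes Fgfr2 and Met were lower in GFP+ cells, and the forms of Fgfr2 were not told apart here. Fgfr2, whose epithelial form binds Fgf7, read 412, 332 and 330 against 1475, 1630 and 1689 (-2.11 ± 0.10), and Met, the Hgf receptor, was lower at a dim signal (-1.33 ± 0.21, 19.9 against 74.2). Pdgfd (1.95 ± 0.10), Vegfa (1.51 ± 0.04) and Fgfr1 (0.72 ± 0.05) were higher. The IGF-binding proteins Igfbp2 (-2.04 ± 0.09, 3842 against 15837) and Igfbp3 (-1.52 ± 0.26, 6832 against 19596) and the ligand Hbegf (-1.27 ± 0.09) were lower. Vegfd (0.02, 95% interval -0.21 to 0.24), Pdgfa (0.01) and Egfr (-0.09) were not called.

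Chemokine and cytokine genes went both ways. Of 32 measured, 12 were higher, 9 lower and 11 not called (median 0.06). Ptx3, a soluble pentraxin, read 1717, 2105 and 1861 against 219, 367 and 329 (2.60 ± 0.13, adjusted p = 1.32e-10). Il11 was higher (2.30 ± 0.13, 877 against 168), with Il6 of the same cytokine family (1.38 ± 0.06, 4340 against 1663) and the eotaxin Ccl11 (2.17 ± 0.30, 167 against 24.5). Il18 (-1.65 ± 0.07, 702 against 2231), the monocyte chemokine Ccl2 (-1.54 ± 0.07, 1198 against 3519) and Cxcl12, a stromal chemokine (-0.75 ± 0.09, 4732 against 7969), were lower. A second probe set of Cxcl12 gave -1.84. Lif was level (-0.06, 95% interval -0.18 to 0.07). Of 23 complement and acute phase genes 5 were higher, 8 lower and 10 not called (median -0.13). Haptoglobin, Hp, read 1205, 1418 and 1302 against 145, 222 and 198 (2.71 ± 0.21), and the inhibitor Serpina3n was higher (1.72 ± 0.16). The complement proteases C1s1 (-1.19 ± 0.12) and C1ra (-1.28 ± 0.10), the serum amyloid Saa3 (-0.79 ± 0.17) and clusterin, Clu (-2.81 ± 0.11, 1403 against 9964), were lower. Without epididymal GFP+ replicate 3 or GFP- replicate 3 only 5 of this list were called lower.

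Markers of other cells were checked beside these results, and their part in the results was not tested. Of 23 macrophage and leukocyte markers 3 were higher, 8 lower and 12 not called (median -0.30), and 10 were weakly detected. Calls covered 47.8% of this list, beside 41.9% of all genes. The summed signal of the list was 4419 to 4752 in GFP+ and 4292 to 4587 in GFP- arrays, so the ranges of the gates overlap. Lysozyme, Lyz2, read 328, 464 and 465 against 828, 832 and 755 (-0.93 ± 0.13), and the leukocyte tetraspanin Cd53 831, 1019 and 864 against 193, 220 and 210 (2.04 ± 0.07). C1qa, a complement chain made by macrophages, was near the floor in GFP+ and low in GFP- cells (21.9 and 61.2). Of 18 endothelial markers 3 were higher, 2 lower and 13 not called (median 0.10, 27.8% called beside 41.9% of all genes). Weakly detected were 14 of them. Kdr, the VEGF receptor, read 525, 560 and 571 against 4615, 4490 and 4303 (-2.98 ± 0.14), and Esam, a junction molecule, 113, 126 and 133 against 798, 831 and 847 (-2.59 ± 0.16). The vessel cadherin Cdh5 read 134 to 186 against 25.7 to 39.2 (1.88 ± 0.22), and its second probe set gave -0.03. The summed endothelial signal was 1871 to 1893 in GFP+ and 6074 to 6387 in GFP- arrays. Kdr alone gave 4303 to 4615 of the GFP- sum, so the sum mostly follows that gene.

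Contractile genes were mostly higher in GFP+ cells or level. Of 23 mural and smooth muscle genes, which cultured fibroblasts also express, 12 were higher, 3 lower and 8 not called (median 0.23), and the list summed to 289323 to 295301 in GFP+ and 252353 to 255406 in GFP- arrays. Mylk, the kinase of myosin light chain, read 28489, 28193 and 28176 against 7115, 8533 and 8058 (1.84 ± 0.05, adjusted p = 2.03e-14). Smooth muscle myosin, Myh11, was higher (0.79 ± 0.04), as were Lmod1 (0.96 ± 0.07), the signalling regulator Rgs4 (2.13 ± 0.08) and calponin, Cnn1 (0.36 ± 0.03). Dimmer probe sets of Rgs4 gave 0.86 and 0.71. Tagln (-0.02) was level at the top of the signal range, and Des (-0.26 ± 0.04) was lower. Tpm2 was level in its brightest probe set (0.00), also at the top of the range, while its other probe sets gave 0.07, 0.31 and 0.42. Acta2, smooth muscle actin, was slightly lower (-0.11 ± 0.02), while the mean of its probe sets gave 0.05 (adjusted p = 0.464). Of 12 skeletal muscle and Schwann cell markers 2 were higher, 0 lower and 10 not called (median 0.07), and 9 were weakly detected. They were the actin Acta1 (1.45 ± 0.09, 8351 against 3057) and Pax7, which lay near the floor (30.9 and 7.66), and only 1 of them was called without epididymal GFP+ replicate 1. The list summed to 8490 to 9468 in GFP+ and 3335 to 3923 in GFP- arrays. Acta1 alone averaged 8351 and 3057, so the sum mostly follows that gene.

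Cell cycle genes went both ways, and the kinase inhibitor genes Cdkn2a and Cdkn2b were lower in GFP+ cells. Of 35 measured, 13 were higher, 15 lower and 7 not called (median 0.03). Cdkn2a, which encodes p16 and p19ARF, read 148, 106 and 120 in GFP+ and 1710, 859 and 1434 in GFP- arrays (-3.22 ± 0.20, adjusted p = 1.45e-09). Its neighbour Cdkn2b, p15, read 1417, 1409 and 1505 against 6590, 5417 and 6494 (-2.08 ± 0.06). Both inhibitors were high in all GFP- arrays. The kinase Cdk6 (-1.98 ± 0.21, 45.4 against 220), weakly detected over all arrays, and its cyclin partner Ccnd1 (-1.20 ± 0.13, 344 against 821) were lower in GFP+ cells too. Among genes of DNA replication and mitosis, Mcm2 (-0.58 ± 0.06) and Mcm7 (-0.57 ± 0.04) were lower, Ccne2 (0.71 ± 0.09) and Bub1 (0.53 ± 0.07) were higher, and Mki67 was not called (0.22, 95% interval 0.03 to 0.40, adjusted p = 0.0571).

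Sterol synthesis genes were lower together by small amounts. Of 19 measured, 12 were lower, 2 higher and 5 not called (median -0.32), none by 2-fold. Msmo1, a sterol demethylase, read 2408, 2449 and 2429 against 3996, 3957 and 4055 (-0.72 ± 0.03, adjusted p = 2.66e-12). Stard4, a cholesterol carrier (-0.80 ± 0.06), squalene epoxidase, Sqle (-0.53 ± 0.05), Hmgcs1 (-0.40 ± 0.03) and Dhcr7 (-0.65 ± 0.08) were lower as well, and Ebp (0.30 ± 0.04) and Hsd17b7 (0.33 ± 0.08) higher. Of 24 interferon response genes 8 were higher, 4 lower and 12 not called (median 0.23, 50% called beside 41.9% of all genes). The immunoproteasome subunit Psmb8 (1.99 ± 0.10, 348 against 76.2) and the GTPase Gbp3 (1.35 ± 0.14) were higher, and Tap1, a peptide transporter (-0.77 ± 0.09), and Bst2, tetherin (-0.62 ± 0.10), lower.

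Guidance and adhesion molecules were on balance lower in GFP+ cells. Of 37 measured, 21 were lower, 9 higher and 7 not called (median -0.37). Epha2, an ephrin receptor, read 1557, 1464 and 1572 against 8121, 7626 and 8071 (-2.36 ± 0.10, adjusted p = 6.33e-12), and its ligand Efna1 82.0, 68.5 and 110 against 580, 626 and 570 (-2.58 ± 0.19). Receptor and ligand were thus lower together. The semaphorins Sema3f (-2.55 ± 0.20, 70.9 against 495) and Sema3a (-1.89 ± 0.08, 339 against 1297), and the adhesion molecules Alcam (-1.64 ± 0.10), Icam1 (-1.45 ± 0.13) and N-cadherin, Cdh2 (-1.27 ± 0.05), were lower. Nrp1, the semaphorin receptor neuropilin-1, was higher (1.27 ± 0.05, 6716 against 2774). Robo1, the Slit receptor, read 692, 775 and 723 against 44.2, 31.6 and 29.5 (3.88 ± 0.11). Of 22 hedgehog and Notch pathway genes 11 were lower, 2 higher and 9 not called (median -0.25), and 12 were weakly detected. Gas1, a hedgehog co-receptor, read 5251, 5757 and 5464 against 17289, 18374 and 17962 (-1.70 ± 0.17), and Dlk1, the preadipocyte factor, was lower at a dim signal (-1.07 ± 0.18, 94.4 against 216). Without epididymal GFP+ replicate 1 or GFP- replicate 1, 1 member of this list was called higher. Ptch1, a receptor and target of hedgehog, was higher (0.46 ± 0.07), while Gli1 did not differ detectably at a signal of about 93.3 and 90.0.

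**Figure D4:**
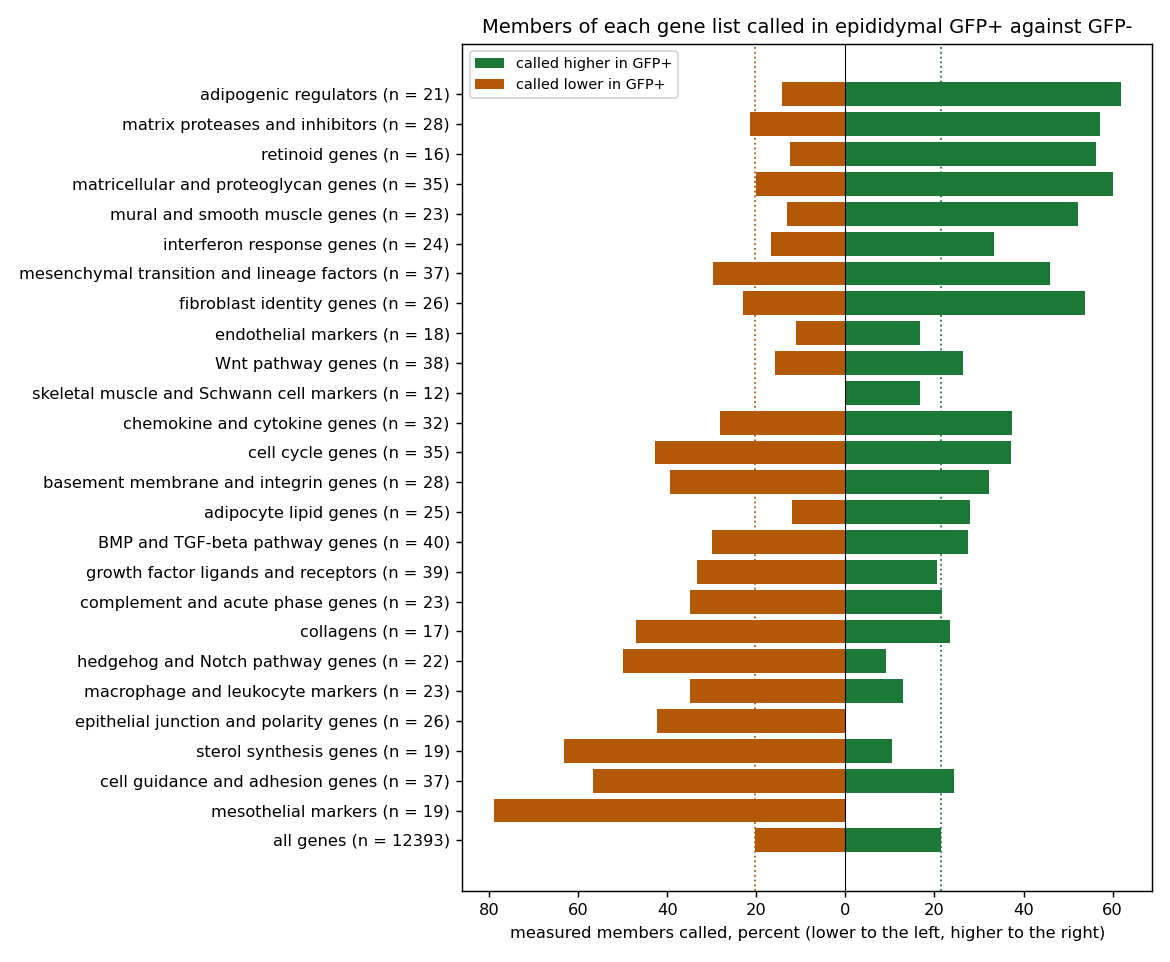
Percent of the measured members of each gene list that were called higher (right) or lower (left) in epididymal GFP+ against GFP- cells, ordered by the median log2 difference, with all genes at the bottom and as dotted lines. Mesothelial markers had 15 of 19 members lower and 0 higher, and adipogenic regulators 13 of 21 higher and 3 lower.

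The difference between gates was set against the same difference in inguinal cells by the interaction term of the fit. It was called for 4313 of 12393 genes (34.8%). All 15 leading genes of each side were among them. They were chosen by their epididymal difference, which the interaction term contains, so that count is no separate evidence. In inguinal cells 1556 genes were called (12.6%), 652 higher (5.26%) and 904 lower (7.29%). Of the 5187 genes called in epididymal cells, 620 were called in the same direction in inguinal cells, 504 in the opposite direction and 4063 not at all. The inguinal GFP- arrays held macrophage transcripts: the macrophage list summed to 14553 to 16928 there against 6605 to 7215 in inguinal GFP+ arrays and at most 4752 in any epididymal array. Its part in the interaction calls was not tested.

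Ebf1 and Ebf2 differed strongly between epididymal gates and were not called between inguinal ones. In inguinal fat Ebf1 averaged 3577 in the GFP+ and 3477 in the GFP- gate, so the epididymal GFP- mean of 125 was the lowest of the 4 groups (interaction 4.34, adjusted p = 5.22e-16). Ebf2 averaged 748 and 818 in the inguinal gates (interaction 5.25, adjusted p = 1.07e-13). Pdgfrb averaged 11860 and 12885 there (interaction 1.84). For these 3 genes epididymal GFP- cells stood apart from all the other groups. Upk3b and Msln were at the floor in inguinal cells, with means of 10.5 and 12.5 for Upk3b and 37.2 and 47.3 for Msln, and epididymal GFP+ cells, at 600 and 181, read more than either. The mesothelial list as a whole was not at the floor there. It summed to 14858 to 16226 in inguinal GFP+ and 6900 to 7237 in inguinal GFP- arrays. Of its 19 measured members 3 were called higher and 3 lower in inguinal GFP+ cells. Wt1, at 61.8 and 61.4, and Tcf21 were dim in both inguinal gates and bright in both epididymal ones. Aldh1a2 did not share this pattern, since inguinal arrays were bright for it on average.

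Some genes turned their direction between depots. Krt7 was higher in inguinal GFP+ cells (mean 564 against 148, difference 1.82) and lower in epididymal ones (interaction -6.48, adjusted p = 5.29e-14). Sfrp2 was higher in inguinal GFP+ (2.57) and lower in epididymal GFP+ cells (interaction -8.57). Aldh1a1 averaged 1519 and 471 in the inguinal gates (1.66), against -2.53 in the epididymal comparison (interaction -4.18, adjusted p = 9.97e-16). Sterol synthesis genes as a list had 15 higher and 0 lower of 19 in inguinal GFP+ cells (median 0.37), and the interaction was called for 15. Only part of the GFP+ profile was in common. Mrap was higher in both depots (3.44 and 4.46, interaction 1.02, adjusted p = 0.00191), as were Fabp4 (1.81 and 4.30), Pparg (1.28 and 2.17) and Zfp423 itself (0.94 and 2.50), each larger in epididymal cells by the interaction test. Nfib was lower in both by amounts whose difference was not called (-1.35 and -1.42).

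**Figure D5:**
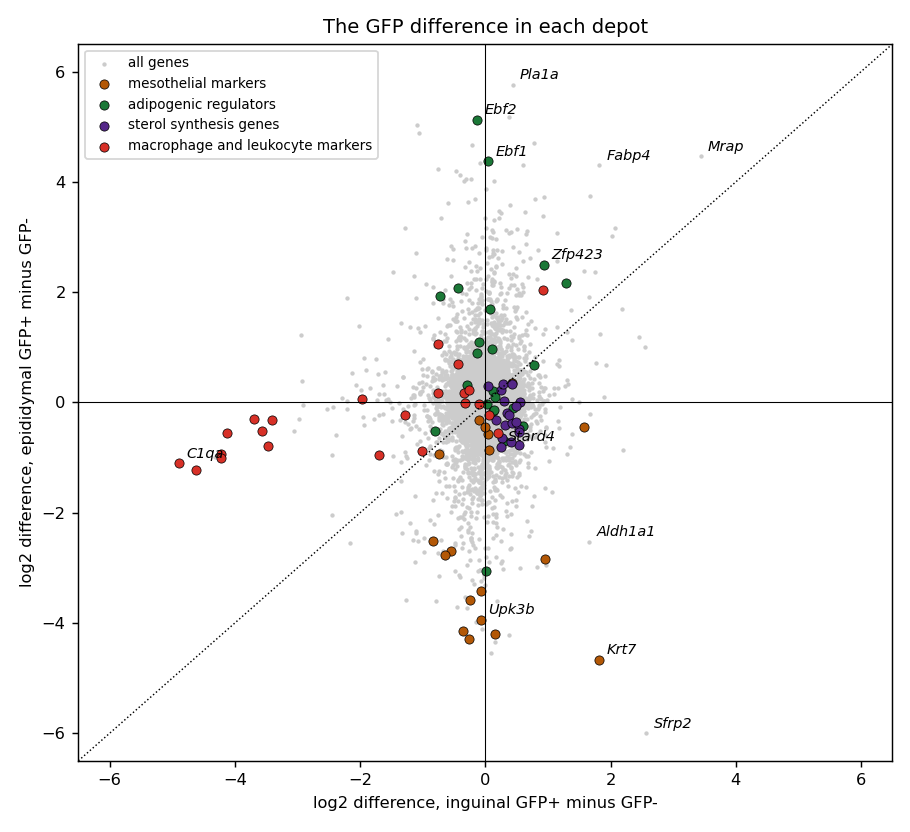
Log2 difference GFP+ minus GFP- in epididymal cells (y axis) against the same difference in inguinal cells (x axis) for all genes, with 4 gene lists in colour and a dotted line of equal values. Mesothelial markers and Ebf1, Ebf2 and Pla1a spread along the epididymal axis, macrophage markers along the inguinal one, and Krt7, Sfrp2 and Aldh1a1 lie in the quadrant of opposite signs.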

How the data were processed

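Total RNA of 12 samples, 3 per group, was hybridised to Affymetrix arrays as biotin-labelled cRNA. The values come as deposited by the authors: linear intensity per probe set. How they were computed, background-corrected and scaled is not given in the sources used here, and they were not rescaled, as the medians of the arrays were close.

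The table held 22626 probe sets, of which 20380 had 1 gene symbol in the platform annotation, 691 several and 1555 none; only the first were used. Symbols were updated through the RefSeq gene table of GRCm38.p6, and 24 symbols found no current match and were kept. After log2(intensity + 16), each of the 12393 genes was represented by its probe set of highest mean. Limma 3.58.1 in R 4.3.3 (lmFit, eBayes with a trend) fitted the 4 groups together, and p-values were adjusted by Benjamini-Hochberg (calls under 0.05). Every p in the text is from this fit or a named alternative to it. Levels are not compared between genes.

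The members and the 25 gene lists (727 genes, 663 measured) were chosen with earlier results of these data known, so the lists are no independent evidence. Named by rule were the markers Zfp423, Ebf2, Upk3b and Krt7, the 15 largest called differences per direction without overlap and with a higher group not weakly detected, up to 8 called members per list and direction, up to 4 uncalled members per list, and the 10 smallest interaction p-values. This gave 418 genes, and the text names part of them. Wt1, Aldh1a2, Krt18, Slpi, Efemp1, Cldn15, Cdh1, Epcam, Gata4, Cebpd, Clu, Col1a1, Col1a2, Col3a1 and Col5a1, and the genes of the closing observations, were named after their values were seen.

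No pairing by replicate number was detected, as deviations of same-numbered epididymal arrays correlated at 0.011, 0.027 and -0.012. Such values cannot show that the samples were unpaired. On simulated data for the epididymal comparison (12393 genes) 67, 67 and 66 genes were shifted by 0.5, 1 and 2 (log2). Of these 64.2%, 76.1% and 100% were recovered, and 8.05% of calls were false. Far fewer genes were shifted there than were called in the data, so these rates do not carry over to the calls reported here. As alternatives, arrays were quantile normalized or centred on their medians, the pseudocount was set to 1 or 64, weakly detected genes or the inguinal arrays were dropped, the variance trend was removed, array weights were used, a gene's probe sets were averaged, the replicate number was a block, a change beyond 1.5-fold or an adjusted p under 0.01 was asked for, and single arrays were left out. Scanner files were not used here.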

Additional observations from a re-analysis of the deposited data

Results flagged for a closer look

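The interaction term found a difference between depots in the GFP comparison for 4313 genes, so the results below were singled out by a tested difference between epididymal and inguinal cells. The 10 genes with the smallest p are given with the epididymal minus inguinal difference of the log2 differences. Nr2f1 had 4.89, with a mean signal of 4103 and 146 in epididymal GFP+ and GFP- cells and 1000 and 1166 in inguinal ones. Pla1a had 5.33, with 8842 and 148 against 8792 and 6493. Fgf7 had 3.88, with 1698 and 90.6 against 4199 and 3832. Ebf1 had 4.34 and Pdgfrb 1.84, with values given above. Aoc3, an amine oxidase of the cell surface, had 2.80, with 6808 and 856 against 3847 and 3421. Epb41l3, a membrane skeleton protein, had 2.59, with 7877 and 1247 against 6541 and 6319. In these 7 genes the epididymal GFP- mean was the lowest of the 4. The same held for Mustn1, at 4.66 with 3993 and 204 against 1813 and 2520, and for Itga9, at 4.53 with 3461 and 184 against 1086 and 1445. Aldh1a1, at -4.18, had its highest mean in epididymal GFP- cells, with 3400 and 19675 against 1519 and 471.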

How the results depend on the processing

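With a minimum change of 1.5-fold 943 genes were called, 499 higher and 444 lower, and the depot difference for 885, of which 505 were more positive and 380 more negative in epididymal cells. Other settings called between 4128 (adjusted p of 0.01) and 5249 (array weights) genes, and leaving out 1 array gave 4733 to 5313. The replicate block called 5154 genes, of which 5062 were among the 5187. With weakly detected genes left out, 3 complement and acute phase genes, 0 endothelial markers and 1 skeletal muscle or Schwann cell marker were called higher. Of hedgehog and Notch pathway genes 1 was called higher without the variance trend and 1 with the mean of probe sets, which called 7 lower. Leaving out 1 array gave 5 to 8 complement and acute phase genes lower, 1 to 3 skeletal muscle and Schwann cell markers higher and 1 to 2 hedgehog and Notch pathway genes higher. With the mean of probe sets the value turned to 0.0498 for Acta2, -0.00107 for Col1a2 in epididymal GFP+ against GFP- cells and -0.11 for Col5a2. The cause of these changes was not tested, beyond fewer arrays or genes and a stricter threshold. Of 464 named genes 36 lost a call and 26 gained one under at least 1 of the 22 settings that refit the genes, and 3 turned their sign. Where the lower group lies near the array floor, its signal limits the size of the difference.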

Other observations

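Some of the genes furthest apart between epididymal gates stood in no list above and were chosen after their values were seen. On the GFP+ side Tubb3, a tubulin of neurons, read 1850, 1803 and 1714 against 97.3, 74.6 and 108 (4.06 ± 0.09), and Kcnmb1, a subunit of the calcium-activated potassium channel of smooth muscle, 1054, 1068 and 1033 against 79.4, 64.2 and 57.5 (3.69 ± 0.11). The small proteoglycan Aspn (3.69 ± 0.14, mean 2299 against 163), the dipeptidase Dpep1 (3.74 ± 0.10, 2432 against 167), cathepsin H, Ctsh (3.31 ± 0.05, 8115 against 809), the neurotrophic factor Gdnf (3.34 ± 0.21, 263 against 12.6) and the microfibril protein Mfap4 (3.07 ± 0.19, 1766 against 196) were higher in every GFP+ array. Cyp7b1, an oxysterol hydroxylase, was higher in epididymal (3.02 ± 0.18) and inguinal GFP+ cells (2.02).

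On the GFP- side 3 muscle genes, chosen after their values were seen, had a signal above the floor. Myh1 read 34.0, 46.6 and 32.3 in GFP+ and 480, 551 and 488 in GFP- arrays (-3.29 ± 0.19), Myh2 111, 78.0 and 79.7 against 1063, 1009 and 1007 (-3.32 ± 0.18), and the cardiac troponin Tnnt2 53.9, 56.0 and 62.2 against 688, 1038 and 907 (-3.59 ± 0.23). These are skeletal and heart muscle genes, and the heart peptide Nppb was lower in GFP+ cells too (-2.51 ± 0.11, 437 against 2559). In the list of skeletal muscle and Schwann cell markers 0 of 12 were lower and 2 higher, Acta1 and Pax7. Among enzymes lower in GFP+ cells were Hal, which breaks down histidine (-3.05 ± 0.24, 313 against 2712), and Ddc, which makes amines (-3.19 ± 0.16, 168 against 1663). Perp, a desmosome gene (-3.15 ± 0.14), the kinase Stk26 (-2.80 ± 0.19, 1329 against 9361), the sodium pump subunit Atp1b1 (-3.04 ± 0.10, 1048 against 8749), the oncogene Mycn (-2.64 ± 0.14, 299 against 1927) and the surface enzyme Bst1 (-3.17 ± 0.11, 400 against 3735) were lower as well. Cxadr, a junction receptor, was lower (-3.03 ± 0.26), with another probe set at -3.60 and a weakly detected one at 0.30.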
